A study of Mus musculus with 10 samples.

Results

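The genes for chemokines and their receptors were followed in kidney cortex of diabetic and control mice. A gene was a member when its symbol in the probe annotation began with Ccl, Cxcl, Cx3cl, Cxcr, Cx3cr or Ackr, or with Ccr and a digit, and 50 of 16475 measured genes met this rule. They comprised 30 ligands, 16 receptors and 4 atypical receptors. The cortex, from which glomeruli had been removed, came from BKS mice 24 weeks old with no treatment listed. The db/db group held 5 diabetic mice, in which the db mutation of the leptin receptor gene is present on both copies. The controls were 5 non-diabetic littermates written as db/m. Each mouse gave 1 Affymetrix array, and the labels state neither pooling nor sex.

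Chemokines are small secreted proteins that steer white blood cells along gradients through G protein-coupled receptors. They are classed by the spacing of their first cysteines as CC, CXC or CX3C, and the receptors are named after the class they bind. Atypical receptors bind chemokines without coupling to G proteins and take them up. In the kidney, injured tubule cells, macrophages, endothelium and fibroblasts can all make them.

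Values are RMA log2 levels, so 1 unit is a 2-fold difference, and they are compared for a gene between arrays, never between genes. A gene is called dim when its db/m mean was below 5.68, the lowest 25% of all genes. Of the 50 members 30 were dim in db/m, so fold sizes from that level are approximate. Medians of the arrays ranged from 8.46 to 8.66, and precision is limited by having 5 arrays a group. The proximal tubule markers of the tissue were bright in all arrays, with a list mean of 12.79 to 13.34. Mouse 1 lay below all controls for the list means of tubule markers. It stood at -0.48 from the db/m mean for proximal tubule, -0.70 for thick ascending limb and -0.85 for collecting duct markers. The thick ascending limb value rested mostly on Slc12a1 at -1.78, with Umod at -0.24 and Cldn16 at -0.08. The collecting duct value rested mostly on Aqp3 at -2.17, with Aqp2 at -0.31 and Fxyd4 at -0.07. The part of these lower marker levels in the members' levels was not tested. Podocyte markers were present in both groups in spite of the removal of glomeruli, with list means of 8.83 to 9.17 in db/m and 9.11 to 9.58 in db/db, and 2 of 4, Wt1 and Synpo, rose. The array of db/db mouse 1 stood apart from the others, with 4.53% of all genes at least 4-fold above the db/m mean against 0.0910% to 0.492% in the other db/db arrays. Counts of members called are given with and without it. For single genes the fit without it is given for some only.

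Most chemokine genes were higher in db/db mouse 1 than in any control, and several were also higher in db/db mice 2 and 3. A smaller set was lower than in any control in mice 3, 4 and 5. In mouse 1, 40 of 50 members (80%) lay above all 5 db/m arrays, where 25.1% of all genes did. In the same mouse 25 members (50%, against 4.53% of all genes) were at least 4-fold above the db/m mean. In mouse 2 the count above the db/m range was 23 (46%, against 23.6% of all genes), in mouse 3 it was 17 (34%, against 24.0%), in mouse 4 it was 4 (8%, against 22.2%) and in mouse 5 it was 5 (10%, against 25.6%). Below the db/m range lay 6 members (12%, against 49.4% of all genes) in mouse 1 and 7 (14%, against 27.0%) in mouse 2. There were 20 (40%) in each of mice 3, 4 and 5, against 26.1%, 21.9% and 24.2% of all genes. At least 4-fold above the db/m mean were 3 members (6%, against 0.492%) in mouse 2, 4 (8%, against 0.291%) in mouse 3 and 0 in mice 4 and 5, where 0.0910% and 0.127% of all genes were. The mean over all members was 5.99 to 6.20 in db/m and 8.55, 6.70, 6.34, 5.83 and 5.78 in db/db 1 to 5. In bulk tissue a higher level from more cells of a type and one from more RNA per cell cannot be told apart, nor can fewer cells and less RNA per cell.

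**Figure D1:**
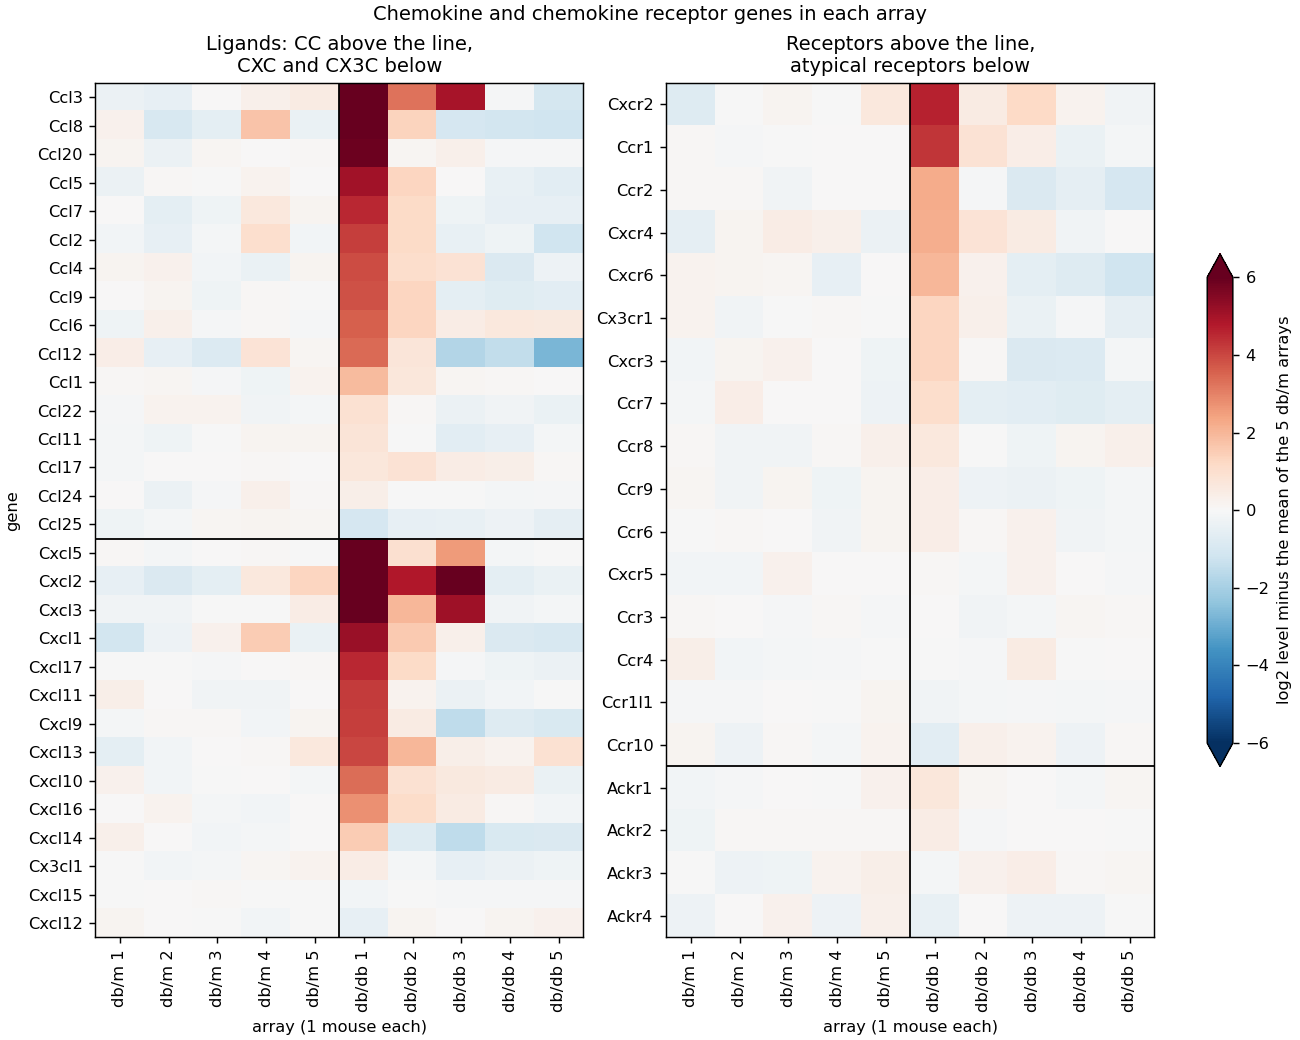
Each row is a member and each column an array; colour gives the log2 level minus the mean of the 5 db/m arrays, with differences beyond 6 at the darkest shade. The column of db/db 1 is red for most ligands, db/db 2 is red at smaller sizes, db/db 3 is red for Ccl3, Cxcl2, Cxcl3 and Cxcl5, and db/db 4 and 5 are pale or blue.

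The comparison of groups called few members. By limma with Benjamini-Hochberg adjustment over all genes 1 of 50 members passed an adjusted p of 0.05, a lower one, where 6.51% of all genes passed. At an unadjusted p under 0.05 there were 5 members (10%, against 21.5%), Ccl25, Ccl17, Ccl6, Cxcl13 and Cxcl2. Higher calls numbered 0 (against 2.96% of all genes) and lower calls 1 (2%, against 3.54%). The other 49 members had adjusted p values of 0.0701 to 0.998. For the 25 members at least 4-fold higher in db/db mouse 1 the SD among db/db mice was 0.943 to 3.68 and the adjusted p was 0.181 to 0.973. Without db/db 1, 2 of these 25, Ccl6 and Ccr2, passed in opposite directions, 16 of the 25 had a difference above 0, and the other 23 had adjusted p values of 0.155 to 0.991. The median log2 difference, db/db minus db/m, was 0.16 for the members and -0.03 for all genes, or 0.01 and -0.01 without db/db 1. It was above 0 for 34 members (68%, against 43.1% of all genes), and for 26 (52%, against 48.5%) without db/db 1.

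The CXC ligands Cxcl2, Cxcl3 and Cxcl5, which bind Cxcr2 and draw neutrophils, were dim in db/m and high in mice 1, 2 and 3. Levels are given for mice 1 to 5 in turn. Cxcl2 lay at 4.01, 3.60, 3.88, 5.14 and 5.79 in db/m and at 11.70, 9.31, 10.55, 3.88 and 4.07 in db/db. Cxcl3 lay at 3.35, 3.36, 3.53, 3.56 and 4.03 in db/m and at 10.58, 5.55, 8.65, 3.37 and 3.47 in db/db. Mice 1, 2 and 3 were above every control for both genes, and mice 4 and 5 were within the control range. Cxcl5 lay at 3.13, 2.96, 3.09, 3.15 and 3.04 in db/m and at 10.99, 4.05, 5.65, 2.97 and 3.05 in db/db, with the same 3 mice apart. Cxcl1 lay at 6.35, 7.18, 7.72, 9.01 and 7.08 in db/m and at 12.63, 9.05, 7.77, 6.60 and 6.53 in db/db. For Cxcl1 mouse 2 passed the highest control by a small margin and mouse 3 did not pass it, unlike for its neighbours. Cxcr2, the receptor of these ligands on neutrophils, lay at 4.83, 5.60, 5.76, 5.61 and 6.23 in db/m and at 10.22, 6.08, 6.80, 5.82 and 5.37 in db/db, so mice 1 and 3 were above the controls and mouse 2 was not. The groups overlapped for all 5 genes, and their adjusted p by limma was 0.224 for Cxcl2, 0.246 for Cxcl3, 0.36 for Cxcl5, 0.62 for Cxcl1 and 0.405 for Cxcr2. Without db/db 1 the log2 difference was 2.47 ± 1.36 for Cxcl2, 1.69 ± 0.93 for Cxcl3 and 0.85 ± 0.47 for Cxcl5, with limma adjusted p of 0.289, 0.288 and 0.288. Cxcl15, a mouse CXC ligand that lies between Cxcl3 and Cxcl1 in RefSeq with no other protein-coding gene among them, lay at 3.19, 3.24, 3.31, 3.19 and 3.18 in db/m and at 3.06, 3.18, 3.15, 3.13 and 3.17 in db/db. The chemokines of this family resemble each other in sequence, and whether their probes cross-hybridise was not tested.

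The promoters of Cxcl1, Cxcl2 and Cxcl3 are shown because these neighbours were all high in db/db 1 and share a stretch of sequence. NF-kB is the transcription factor through which inflammatory signals are known to induce many chemokine genes. RefSeq promoters of build GRCm38.p6, 250 bases before to 50 after the start, were found for 37 of the 50 members and searched on both strands for the NF-kB consensus, an interferon element (GAAA, any 2 bases and GAAA again), TGANTCA (an AP-1 element) and TATAAA. The following are the 120 bases before the start sites on the plus strand, chr5:90891125-90891244 for Cxcl1, chr5:90903779-90903898 for Cxcl2 and chr5:90785981-90786100 for Cxcl3, with consensus matches in capitals.
Cxcl1: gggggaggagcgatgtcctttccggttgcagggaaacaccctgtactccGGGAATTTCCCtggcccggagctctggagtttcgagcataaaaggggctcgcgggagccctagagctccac
Cxcl2: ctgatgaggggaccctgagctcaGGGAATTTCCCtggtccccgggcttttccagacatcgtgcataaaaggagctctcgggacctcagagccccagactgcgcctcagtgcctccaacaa
Cxcl3: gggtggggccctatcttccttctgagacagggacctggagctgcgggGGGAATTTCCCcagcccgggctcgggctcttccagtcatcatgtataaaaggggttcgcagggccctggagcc
The same 11 bases stand in capitals in all 3, formed by 2 overlapping matches on opposite strands, and they begin 71, 97 and 73 bases before the start. The consensus was found in 9 of the 37 member genes, the others being Ccl9, Ccl20, Cxcl10, Ccr3, Ccr6 and Ackr2. Some genes have more than 1 promoter, and the matches lay in 9 of 39 member promoters, against 4.51% of all 32851 promoters. Ccr3, which held the consensus too, lay between 2.99 and 3.29 in all 10 arrays. TGANTCA was found in 6 of the 39 member promoters and 7.81% of all promoters, and TATAAA in 13 and 13.6%. A match is a description of letters and not a bound site.

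The CC ligands Ccl2, Ccl7, Ccl8 and Ccl12, which lie in 1 run of neighbours with Ccl11 and Ccl1 in RefSeq, were high in mouse 1 and lower in mice 3, 4 and 5 than in mouse 2. Ccl2, a main monocyte attractant, lay at 7.36, 7.03, 7.41, 8.53 and 7.37 in db/m and at 11.69, 8.70, 7.11, 7.30 and 6.35 in db/db. Ccl7 lay at 4.45, 3.84, 4.19, 5.07 and 4.59 in db/m and at 8.94, 5.59, 4.18, 3.95 and 3.92 in db/db. Mice 1 and 2 were above all controls for both genes. Ccl8 lay at 5.76, 4.57, 4.92, 7.21 and 5.09 in db/m and at 11.76, 6.85, 4.48, 4.43 and 4.29 in db/db. Ccl12, a mouse ligand of Ccr2, lay at 7.77, 6.86, 6.56, 8.18 and 7.47 in db/m and at 10.77, 8.10, 5.62, 5.88 and 4.63 in db/db. For Ccl8 and Ccl12 mouse 1 lay above every control, mouse 2 inside their range and mice 3, 4 and 5 below it. In db/m, mouse 4 had the highest value for all 4 of these genes and for Cxcl1. Ccr2 itself lay at 5.82, 5.84, 5.56, 5.80 and 5.80 in db/m and at 8.0, 5.69, 4.91, 5.24 and 4.78 in db/db, again with mice 3, 4 and 5 below all controls. With all 10 arrays none of the 5 passed, with adjusted p by limma of 0.603 for Ccl7, 0.692 for Ccl2, 0.76 for Ccl8, 0.867 for Ccl12 and 0.973 for Ccr2.

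Ccl5, Ccl9, Ccl6, Ccl3 and Ccl4 lie in that order in RefSeq with 0 other protein-coding genes between them, and their patterns differed. Ccl3 lay at 4.22, 4.08, 4.61, 4.89 and 5.04 in db/m and at 11.38, 7.81, 9.51, 4.52 and 3.53 in db/db. Ccl4 lay at 6.03, 6.10, 5.69, 5.46 and 6.04 in db/m and at 9.76, 6.92, 6.74, 4.98 and 5.54 in db/db. Both were above the controls in mice 1, 2 and 3, as Cxcl2 was, and without db/db 1 the difference of Ccl3 was 1.78 ± 1.06 (limma adjusted p = 0.329). Ccl5, a ligand made by T cells and other cells, lay at 7.55, 7.96, 7.89, 8.12 and 7.93 in db/m and at 12.91, 9.20, 7.91, 7.43 and 7.27 in db/db, so mouse 3 was within the control range. Ccl9 lay at 7.56, 7.69, 7.27, 7.59 and 7.47 in db/m and at 11.35, 8.80, 6.93, 6.78 and 6.89 in db/db, above the controls in mice 1 and 2 and below them in mice 3, 4 and 5. Ccl6, a myeloid cell ligand, lay at 7.96, 8.54, 8.13, 8.29 and 8.15 in db/m and at 11.81, 9.48, 8.68, 8.86 and 8.82 in db/db. Ccl6 was the 1 member for which all 5 db/db mice lay above all 5 db/m mice, a position held by 4.35% of all genes. Its log2 difference was 1.32 ± 0.53 (SE, n = 5 per group) with a limma adjusted p of 0.181, and 0.75 ± 0.17 with an adjusted p of 0.0187 without db/db 1. The receptor Ccr1, of neutrophils and monocytes, lay at 4.26, 4.14, 4.18, 4.21 and 4.25 in db/m and at 8.49, 5.10, 4.60, 3.83 and 4.10 in db/db. Mice 1, 2 and 3 were above the narrow range of the controls and mice 4 and 5 below it, at a dim level.

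The interferon-induced ligands of Cxcr3, a receptor of T and NK cells, were high in mouse 1 and did not move together in the other mice. Cxcl10 lay at 10.83, 10.38, 10.52, 10.59 and 10.43 in db/m and at 13.91, 11.46, 11.15, 11.03 and 10.15 in db/db, with mice 1 to 4 above all controls and mouse 5 below them. Cxcl9 lay at 7.23, 7.41, 7.41, 7.17 and 7.51 in db/m and at 11.49, 7.84, 5.83, 6.59 and 6.41 in db/db, with mice 1 and 2 above and mice 3, 4 and 5 below. Mice 3 and 4 were thus above the controls for Cxcl10 and below them for Cxcl9. Cxcl11 lay at 5.03, 4.71, 4.45, 4.45 and 4.70 in db/m and at 8.88, 4.88, 4.33, 4.49 and 4.66 in db/db, apart from the controls upwards in mouse 1 alone. Cxcr3 lay at 6.89, 7.20, 7.30, 7.07 and 6.76 in db/m and at 8.34, 7.10, 6.18, 6.22 and 6.93 in db/db. Their adjusted p by limma was 0.348 for Cxcl10, 0.89 for Cxcl9, 0.609 for Cxcl11 and 0.907 for Cxcr3.

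The promoter of Cxcl10 is shown because it held a match to the interferon element beside 2 NF-kB consensus matches. The interferon element was found in 3.44% of all promoters and in 2 of the 39 member promoters, those of Cxcl10 and Cxcl14. The stretches are chr5:92348950-92349109 for Cxcl10, chr13:56296632-56296751 for Cxcl14, both on the minus strand, and chr1:83116646-83116765 on the plus strand for Ccl20, which held 1 NF-kB consensus match. Capitals mark matches to either motif.
Cxcl10: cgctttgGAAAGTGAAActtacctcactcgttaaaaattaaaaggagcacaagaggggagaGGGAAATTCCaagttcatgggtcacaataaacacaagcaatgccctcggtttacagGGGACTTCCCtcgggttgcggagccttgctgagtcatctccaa
Cxcl14: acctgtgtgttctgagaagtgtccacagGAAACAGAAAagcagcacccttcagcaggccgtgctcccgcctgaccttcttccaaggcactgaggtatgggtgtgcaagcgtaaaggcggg
Ccl20: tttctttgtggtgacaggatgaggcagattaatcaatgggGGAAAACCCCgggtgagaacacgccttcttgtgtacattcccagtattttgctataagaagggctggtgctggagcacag
The matches in Cxcl10 begin 213, 159 and 103 bases before the start, that in Cxcl14 172 bases and that in Ccl20 80 bases before it. Of these genes Cxcl10 was above the controls in mice 1 to 4, Ccl20 in mice 1 and 3, and Cxcl14 in mouse 1 alone.

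The ligands Ccl20, Cxcl13, Cxcl17 and Cxcl16 were high in mouse 1. Ccl25, a ligand of thymus and gut given below, was lower in mouse 1 than in any other array. Ccl20, which draws Ccr6-bearing lymphocytes and dendritic cells, lay at 4.79, 4.29, 4.78, 4.64 and 4.71 in db/m and at 10.52, 4.77, 4.96, 4.59 and 4.56 in db/db, so mouse 1 stood far above the others and mouse 3 passed the highest control by a small margin. Ccr6 lay between 4.85 and 5.21 in db/m and between 4.87 and 5.45 in db/db. Cxcl13, which draws B cells through Cxcr5, lay at 4.72, 5.12, 5.31, 5.35 and 5.93 in db/m and at 9.28, 7.29, 5.64, 5.51 and 6.19 in db/db. Mice 1, 2 and 5 were above the controls for Cxcl13, while Cxcr5 stayed between 4.11 and 4.54 in all 10 arrays. Cxcl17, a mucosal CXC ligand, lay at 5.10, 5.10, 5.09, 5.16 and 5.23 in db/m and at 9.64, 6.28, 5.09, 4.87 and 4.79 in db/db. Cxcl16, a membrane-bound ligand and scavenger receptor, lay at 10.18, 10.36, 10.03, 9.97 and 10.18 in db/m and at 12.90, 11.24, 10.63, 10.20 and 9.99 in db/db, with mice 1, 2 and 3 above the controls. Its receptor Cxcr6, of T and NKT cells, lay at 5.54, 5.51, 5.45, 4.83 and 5.38 in db/m and at 7.34, 5.59, 4.76, 4.59 and 4.16 in db/db. For Cxcr6 mice 1 and 2 lay above the controls and mice 3, 4 and 5 below them, the reverse of Cxcl16 in mouse 3.

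Ccl25 was the 1 member that fell with all 10 arrays. It encodes a ligand of Ccr9 known for drawing lymphocytes to thymus and gut, and it was not dim. It lay at 9.95, 10.09, 10.29, 10.34 and 10.31 in db/m and at 9.20, 9.69, 9.76, 9.89 and 9.68 in db/db, so that all 5 db/db mice were below all 5 db/m mice, as for 5.85% of all genes. The log2 difference was -0.55 ± 0.13 with a limma adjusted p of 0.0395, and without db/db 1 it was -0.44 ± 0.10 with an adjusted p of 0.0156. The call was kept in 3 of 10 fits that left out 1 array, those without control 1, diabetic mouse 1 or diabetic mouse 4. It was lost when control 2 (adjusted p = 0.0621), control 3 (0.104), control 4 (0.0951) or control 5 (0.0871) was left out, and likewise for diabetic mouse 2 (0.0773), mouse 3 (0.0622) and mouse 5 (0.0669), with a log2 difference of -0.61 to -0.44 over the 10 fits. Its receptor Ccr9 was dim, between 3.94 and 4.68 in all arrays. Ccr1l1, a gene next to Ccr1 in RefSeq, lay at 3.55, 3.54, 3.66, 3.57 and 3.76 in db/m and at 3.42, 3.49, 3.53, 3.51 and 3.54 in db/db. Cxcl15 and Ccr1l1 also had all db/db mice below all db/m mice, by 0.09 and 0.12 at dim levels, with nearest values of the groups apart by less than the rounding printed here and limma adjusted p of 0.433 and 0.325.

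**Figure D2:**
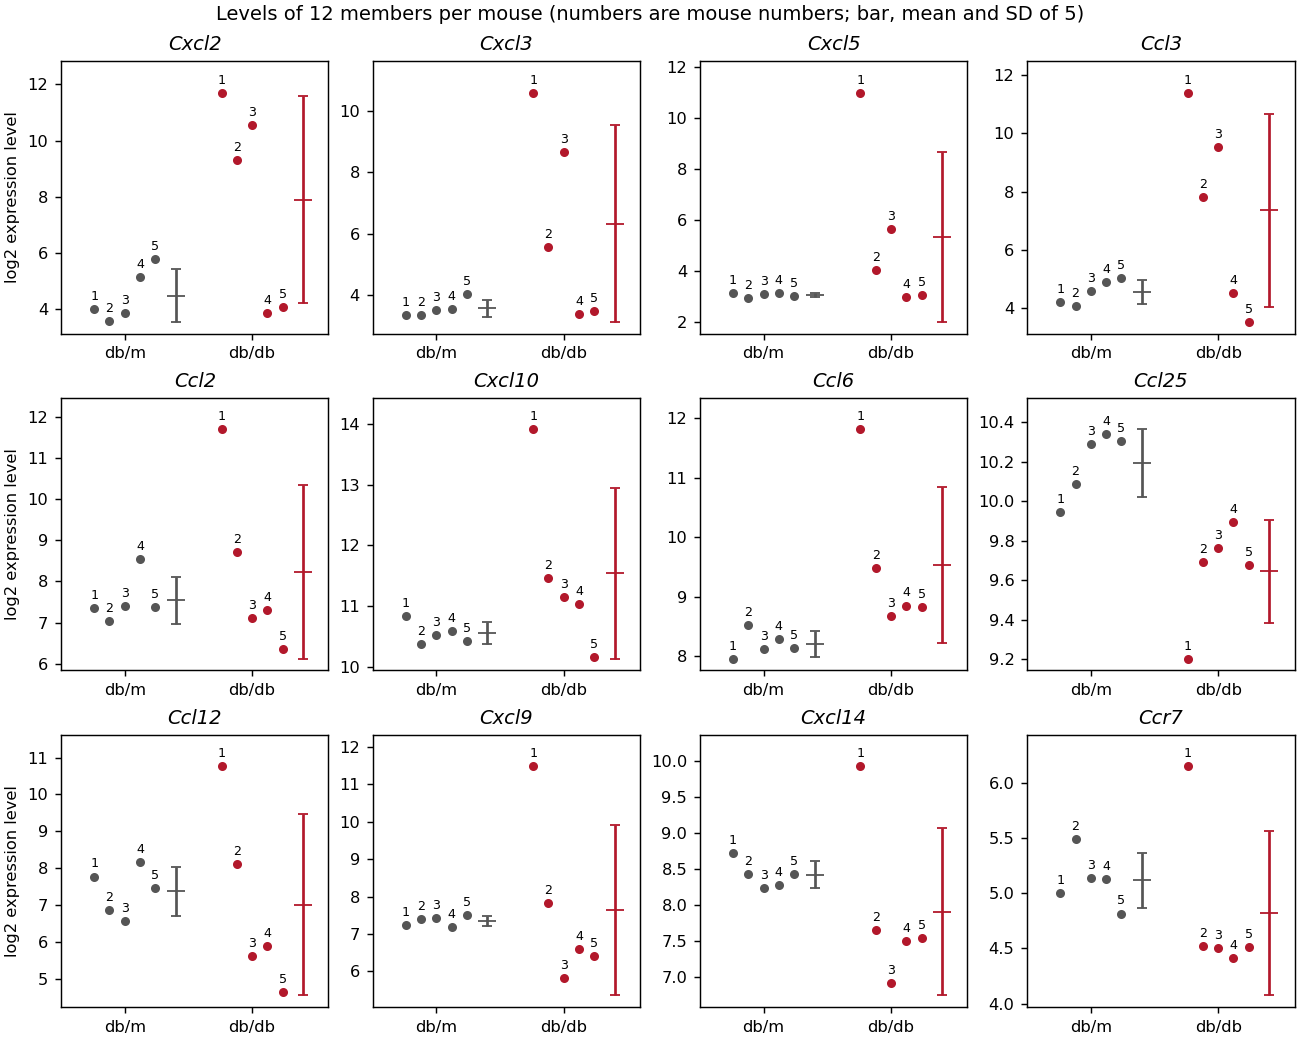
Points are the log2 levels of 12 members in each mouse, labelled with the mouse number, and the bar beside each group is the mean and SD of 5 mice; every panel has its own vertical axis. Cxcl2, Cxcl3, Cxcl5 and Ccl3 show db/db 1, 2 and 3 above the controls, Ccl6 and Ccl25 show groups that do not overlap, and Ccl12, Cxcl9, Cxcl14 and Ccr7 show db/db 1 high and db/db 3, 4 and 5 below all controls.

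Of the remaining ligands of lymphocytes and eosinophils, Ccl17 lay above the controls in 4 db/db mice. Ccl17, which acts through Ccr4, lay at 7.29, 7.45, 7.42, 7.48 and 7.43 in db/m and at 8.09, 8.29, 7.84, 7.76 and 7.47 in db/db. Mice 1 to 4 were above all controls and mouse 5 lay within their range, and the difference was 0.48 ± 0.14 with a limma adjusted p of 0.0701. It passed without db/db 5 (0.58, limma adjusted p = 0.0213). Ccl22, the other ligand of Ccr4 and a neighbour of Ccl17 with Cx3cl1 between them in RefSeq, lay between 5.22 and 5.69 in db/m and between 5.04 and 6.38 in db/db. Ccr4 lay between 3.80 and 4.46 in all arrays. Ccl1 lay between 4.29 and 4.77 in db/m and at 6.45 and 5.25 in db/db 1 and 2, above all controls in both, and its receptor Ccr8 lay between 3.70 and 4.61 over all arrays. The eosinophil ligand Ccl11 lay at 5.17, 5.03, 5.28, 5.47 and 5.46 in db/m and at 6.04, 5.24, 4.64, 4.80 and 5.17 in db/db, with mouse 1 above the controls and mice 3 and 4 below them. Ccl24 lay between 5.05 and 5.75 over all arrays, and the receptor of both, Ccr3, between 2.99 and 3.29. Ccr10, a skin-homing receptor, lay between 4.62 and 5.15 in db/m and between 4.31 and 5.26 in db/db.

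The homeostatic ligands of stromal and epithelial cells showed smaller differences, except Cxcl14. Cxcl14, an epithelial ligand, lay at 8.72, 8.42, 8.24, 8.28 and 8.43 in db/m and at 9.93, 7.65, 6.92, 7.49 and 7.54 in db/db, with mouse 1 above all controls and the other 4 below them. Its log2 difference was -0.51 ± 0.47 with a limma adjusted p of 0.577, and without db/db 1 it fell by 1.02 ± 0.16 (adjusted p = 0.00322). Cxcl12, the stromal ligand that retains stem cells and lymphocytes, lay between 9.82 and 10.16 in db/m and between 9.48 and 10.23 in db/db, with mouse 1 lowest. Its receptor Cxcr4 lay at 8.71, 9.39, 9.67, 9.55 and 8.86 in db/m and at 11.43, 10.07, 9.72, 9.03 and 9.28 in db/db. Ackr3, the atypical receptor that takes up Cxcl12, lay between 11.40 and 12.06 in db/m and between 11.58 and 12.10 in db/db. Mouse 1 was thus the highest array for Cxcr4, the lowest for Cxcl12 and within the control range for Ackr3. Cx3cl1, a membrane-bound ligand, lay at 9.38, 9.22, 9.27, 9.50 and 9.58 in db/m and at 9.84, 9.29, 8.91, 9.03 and 9.14 in db/db, with mouse 1 above the controls and mice 3, 4 and 5 below them. Cx3cr1, its receptor on monocytes and macrophages, lay at 6.76, 6.33, 6.50, 6.58 and 6.49 in db/m and at 7.83, 6.83, 6.12, 6.46 and 5.98 in db/db. The other atypical receptors were dim and within small ranges, Ackr1 at 5.32 to 6.16, Ackr2 at 5.22 to 5.96 and Ackr4 at 4.67 to 5.42 over all arrays.

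Ccr7, the receptor that leads dendritic cells and naive T cells to lymph nodes, was low in every db/db mouse but the first. It lay at 5.00, 5.49, 5.14, 5.13 and 4.82 in db/m and at 6.15, 4.52, 4.50, 4.41 and 4.51 in db/db. The log2 difference was -0.30 ± 0.32 with a limma adjusted p of 0.636, and without db/db 1 Ccr7 fell by 0.63 ± 0.12 (adjusted p = 0.00801), at a dim level.

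The positions of the members against the controls differed between mice. Mice 1 and 2 both lay above the db/m range, and mice 3 to 5 not all above it, for 21 of 50 members (42%, against 9.20% of all genes). These were 17 ligands and the receptors Ccr1, Cx3cr1, Cxcr4 and Cxcr6. None was below the range in the same way, where 14.2% of all genes were. Among the 21, Ccl3, Ccl4, Cxcl2, Cxcl3, Cxcl5, Cxcl16, Ccr1 and Cxcr4 were above it in mouse 3 as well and in neither mouse 4 nor 5 (16% of members, against 1.31% of all genes). Mice 3, 4 and 5 all lay on 1 side outside the range for 13 members (26%, against 19.9% of all genes). They were below it for 12 (24%, against 9.85%) and above it for Ccl6 alone, where 1649 of 16475 genes were above it. Of the 12, Ccl8, Ccl9, Ccl12, Ccr2, Ccr7, Cx3cl1, Cxcl9, Cxcl14 and Cxcr6 were at the same time above the range in mouse 1 (18% of members, against 2.09% of all genes), and the other 3 were Ccl25, Ccr1l1 and Cxcl15. Ccl9, Cxcl9 and Cxcr6 were above it in mice 1 and 2 and below it in mice 3 to 5 (6%, against 0.674%). When a distance of at least 0.5 from the db/m mean was also asked of each array, 8 members were below the range in mice 3 to 5 and Ccl6 was no longer above it. The share of all genes at this distance was not counted, so the 8 cannot be set against it. Mouse 1 alone was above the range for 14 members (28%, against 7.33%). Of these 6 were among the 9 just named, and the other 8 were Ackr1, Ackr2, Ccl11, Ccl22, Ccl24, Ccr9, Cxcl11 and Cxcr3. These positions describe single mice, and no test was made between mice of 1 group.

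**Figure D3:**
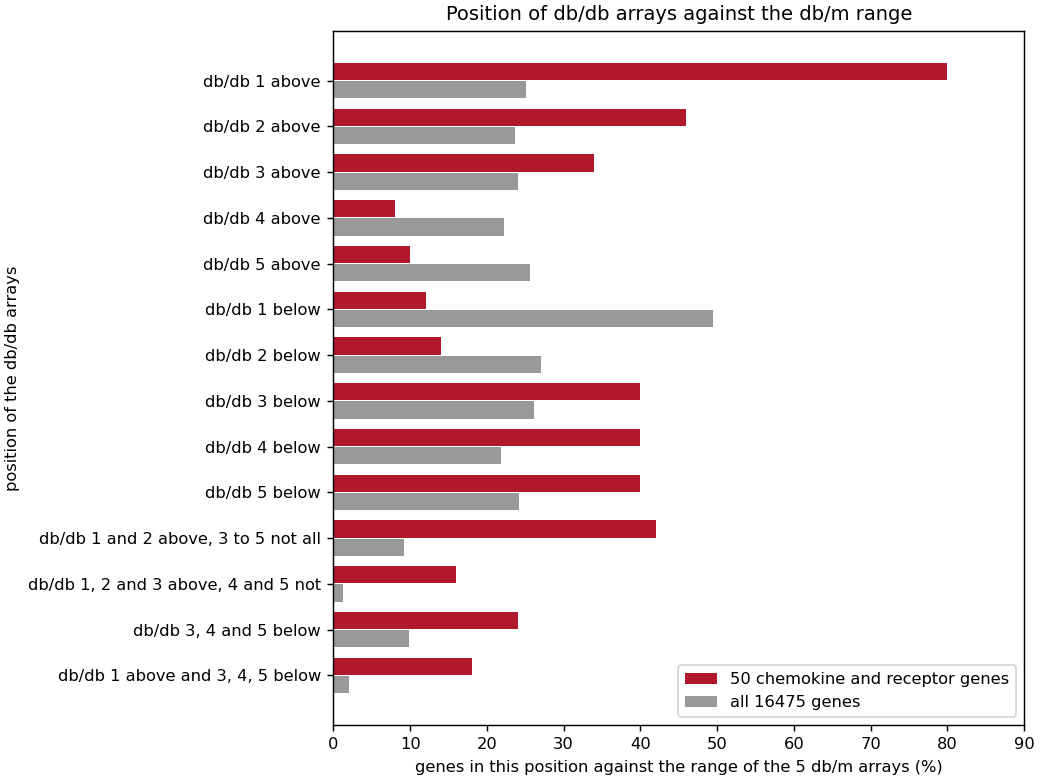
Bars give the share of the 50 members and of all 16475 genes whose db/db arrays lie above or below the range of the 5 db/m arrays, for each mouse and for 4 combinations. The members exceed all genes most for mouse 1 above the range, 80% against 25.1%, and are fewer than all genes above it in mice 4 and 5.

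Members were also fitted without db/db 1 and without db/db 1 and 2. Without db/db 1, limma called 5 members (10%, against 12.8% of all genes). Ccl6 rose and Ccl25, Cxcl14, Ccr7 and Ccr2 fell, the last by 0.61 ± 0.17 with an adjusted p of 0.041. The 4 lower members were 8% of the 50, against 5.93% of all genes called lower, and the 1 higher member was 2%, against 6.84%. Without db/db 1 and 2, leaving 3 db/db mice, 9 members were called (18%, against 11.1%), of which 8 were lower (16%, against 5.13%). Besides those 5, Ccl12 fell by 1.99 ± 0.40 (adjusted p = 0.0146), Cxcl9 by 1.07 ± 0.16 (0.0054), Cxcr6 by 0.84 ± 0.19 (0.0227) and Ccl9 by 0.65 ± 0.10 (0.00523). With all 10 arrays the fitted differences of Ccl9 and Cxcl9 had the opposite sign, 0.64 and 0.28. Mice 1 and 2 were left out with their values known, so these fits describe the other mice and are no separate evidence.

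The list means of macrophage, neutrophil and T cell markers had the same order of db/db mice as the mean of the members. Those of NK cell, B cell and dendritic cell markers did not. The signalling genes described below had this order too. Directions differed in mouse 3, where the means of the members and neutrophil markers lay above all controls and those of macrophage and T cell markers below them. Mice 4 and 5 lay close, at -0.26 and -0.31 from the db/m mean for the members and -0.17 and -0.21 for neutrophil markers. The mean of 10 macrophage markers was 8.52 to 8.75 in db/m and 7.71 to 11.71 in db/db, at 3.10, 0.94, -0.41, -0.61 and -0.91 from the db/m mean in mice 1 to 5. All 10 macrophage markers were above the db/m range in mouse 1 and 8 in mouse 2, and 7 were below it in all of mice 3 to 5, among them Adgre1 and Csf1r. Csf1r was below the range in mouse 2 as well, at -0.29 from the db/m mean. In mouse 3 the other way went 2 markers, Cd14 and Itgam, which were above the range at 1.37 and 0.21. For 8 neutrophil markers, 6 of them dim in db/m, the means were 5.40 to 5.80 in db/m and 5.34 to 9.87 in db/db, at 4.32, 2.08, 0.94, -0.17 and -0.21 from the db/m mean. In mouse 3 the neutrophil calcium-binding genes S100a8 and S100a9 were 3.70 and 3.32 above the db/m mean, near their 3.65 and 3.11 in mouse 2. Csf3r and Mmp8 stood at 0.64 and 0.27 in mouse 3, above the controls. The granule genes Mpo, Camp, Ngp and Elane of mouse 3 were at -0.03, -0.12, -0.01 and -0.27, and in mouse 2 they were at 1.90, 2.98, 2.83 and 0.14, the last within the db/m range. These 4 genes were dim in db/m. Elane and Mmp8 of this list also stand in the list of genes that cut chemokines.

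The mean of 7 T cell markers stood at 1.85, 0.16, -0.47, -0.52 and -0.69 from the db/m mean in mice 1 to 5, with list means of 6.04 to 6.14 in db/m and 5.38 to 7.92 in db/db. All 7 were above the db/m range in mouse 1, but only Cd3d, Cd3e and Cd3g were in mouse 2. Cd2, Cd4, Cd8a and Cd8b1 stood at -0.33, -0.01, -0.19 and -0.30 in mouse 2. In mice 3 to 5, Cd8a stood at -0.31, -0.15 and 0.28 and Cd8b1 at 0.11, 0.12 and -0.45. The 5 NK cell markers, 4 of them dim, ranged from 5.28 to 5.51 in db/m and stood at 1.69, -0.10, -0.38, -0.20 and -0.50 in db/db 1 to 5. B cell markers (3 measured, 2 dim) ranged from 5.10 to 5.63 in db/m and stood at 0.44, -0.20, -0.38, -0.38 and -0.12. The mean of 5 dendritic cell markers ranged from 5.65 to 5.93 in db/m and stood at -0.18, -0.09, -0.43, -0.30 and -0.26. Its low value in mouse 1 rested mostly on Cd209a at -1.42, while Itgax stood at 1.06, above all controls. Flt3, Xcr1 and Zbtb46 stood at -0.31, -0.19 and -0.04 in mouse 1. No marker of the macrophage, neutrophil, T, B and NK cell lists passed with all 10 arrays by limma, and 0 did at an unadjusted p under 0.05. The macrophage receptor gene Csf1r fell by 1.08 ± 0.23 without db/db 1 (limma adjusted p = 0.0137). The dendritic cell marker Cd209a fell by 1.27 ± 0.10 (adjusted p = 0.000232) from a dim 4.93. The mean of 5 fibroblast markers ranged from 8.90 to 9.03 in db/m and from 8.18 to 10.88 in db/db. It stood at 1.90, 0.36, -0.80, -0.43 and -0.35 in db/db 1 to 5. Mice 1 and 2 were thus above all controls for this mean and mice 3, 4 and 5 below them, as for several members. All 5 fibroblast markers were above the db/m range in mouse 1 and 2 in mouse 2, and 4 were below it in all of mice 3 to 5. The mean of 5 endothelial markers ranged from 9.37 to 9.49 in db/m and from 9.36 to 9.56 in db/db. The part of these cells in the members' levels was not tested.

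**Figure D4:**
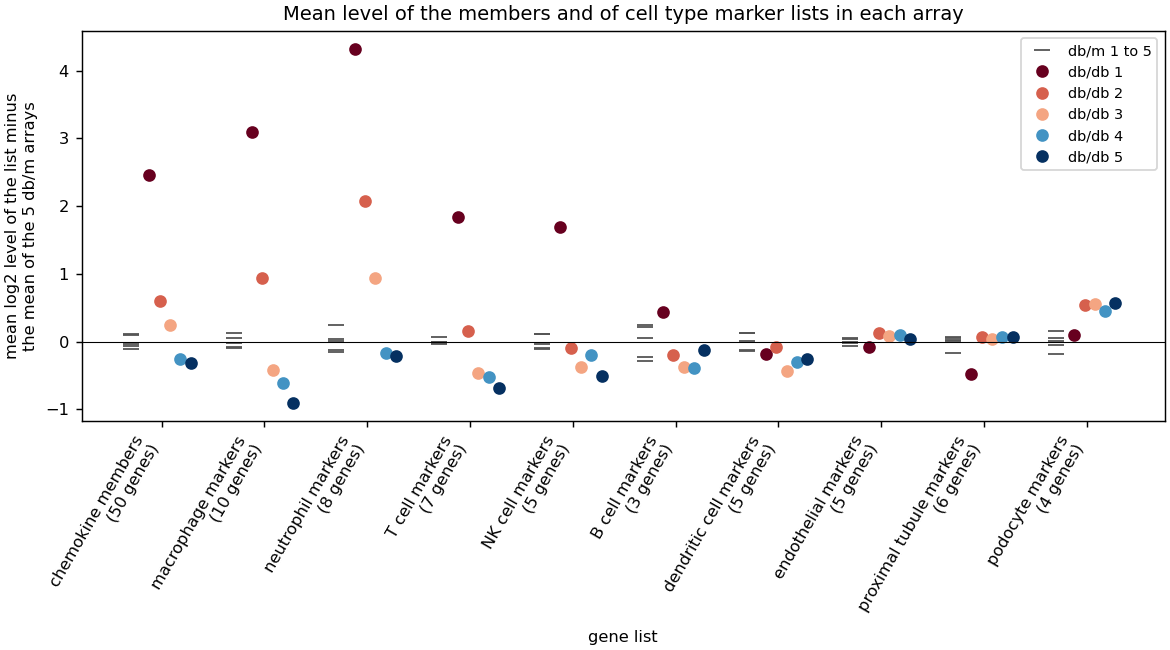
For each gene list the points give the mean log2 level in db/db 1 to 5 and the dashes that in the 5 db/m arrays, both minus the db/m mean. The order of the db/db mice for the 50 members, from 2.46 in mouse 1 to -0.31 in mouse 5, is the same as for the macrophage, neutrophil and T cell markers, while endothelial markers lie near 0. In mouse 3 the members and neutrophil markers lie above the controls, and macrophage and T cell markers below them.

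Most of the listed genes that act upstream and downstream of chemokines also lay above the controls in mouse 1. With all 10 arrays 0 of the listed genes passed the test, where 6.51% of all genes did. The pathways that induce chemokines were followed by 18 genes, among them the restraining genes Nfkbia, Tnfaip3 and Zfp36. Of these 18, 17 were above the db/m range in mouse 1, 13 in mouse 2 and 9 in mouse 3. The shares of all genes were 25.1%, 23.6% and 24.0%. Of the 18, 0 rose or fell with all 10 arrays by limma (median 0.71, against -0.03 for all genes). Il1a and Il1b, which encode interleukins that induce chemokines and are named here after their values were seen, stood 3.54 and 2.56 above the db/m mean in mouse 3. The other cytokine genes of the list did not share this size. Tnf stood at 0.35 in mouse 3, above the controls, and Il6 and Ifng at -0.27 and -0.47, within the db/m range. In mice 4 and 5 Il1b stood at -1.13 and -1.91. Nfkbia, the inhibitor of NF-kB and itself one of its targets, rose without db/db 1 by 0.52 ± 0.10 (limma adjusted p = 0.0107). Of 33 signalling genes, such as G proteins, kinases and arrestins, 26 were above the db/m range in mouse 1 (against 25.1% of all genes). Their distance from the db/m mean ran from 0.14 for Gnb1 to 4.53 for Fgr. Gnai1, Plcb3 and Ptk2b lay below the range in mouse 1, and 0 of the 33 passed with all 10 arrays. The transcription factor gene Stat3 rose without db/db 1 by 0.45 ± 0.12 (limma adjusted p = 0.0385), and Arrb1, which encodes an arrestin that uncouples receptors, fell by 0.54 ± 0.10 (adjusted p = 0.00615). Of 16 genes that cut or display chemokines 0 passed with all 10 arrays. Without db/db 1 the heparan sulfate carrier gene Sdc1 rose by 0.43 ± 0.08 (limma adjusted p = 0.00619), Dpp4, whose peptidase trims chemokines, rose by 0.20 ± 0.05 (adjusted p = 0.0362) and the sheddase gene Adam10 fell by 0.46 ± 0.11 (adjusted p = 0.0231). At an unadjusted p under 0.05 with all 10 arrays 2 genes of the induction list, 1 of the signalling list and 4 of the processing list passed, against 21.5% of all genes.

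Chemokine family genes that the symbols of the rule leave out were seen in 7 rows. Pf4 and Ppbp, CXC ligands of platelets that lie between Cxcl5 and Cxcl3 in RefSeq, were 4.26 and 2.21 above the db/m mean in mouse 1. In mouse 3 Pf4 was at -1.60 and Ppbp at 0.38, where Cxcl5 was at 2.58 and Cxcl3 at 5.08. Ccrl2, a receptor that does not signal, was 2.88 above in mouse 1 and 0.85 in mouse 3. Xcl1, a T and NK cell ligand, was 1.53 above in mouse 1 and below the db/m mean by 0.53 to 0.94 in the other 4 mice, and without db/db 1 it fell by 0.65 ± 0.17 (limma adjusted p = 0.034). Its receptor Xcr1, the chemerin receptor Cmklr1 and chemerin, Rarres2, also did not pass with all 10 arrays, with limma adjusted p of 0.694, 0.285 and 0.617.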

How the data were processed

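Total RNA of glomerulus-depleted kidney cortex of 10 mice was hybridised to Affymetrix mouse arrays, 1 per mouse. The authors used RMA, as the submitters' processing notes state, and deposited log2 expression levels of 2.5 to 14.5. The RMA version and how probes were grouped into 1 row per Entrez Gene ID are not given in the sources used here. No further normalisation or filter was applied. Of 16539 rows, 64 Affymetrix control rows were left out, and 15780 rows had a symbol in the probe annotation. No array was a copy of another: over 45 pairs of arrays the largest difference within a pair was at least 3.07.

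Testing used limma 3.58.1 under R 4.3.3 (lmFit and eBayes, db/db minus db/m, two-sided, Benjamini-Hochberg over 16475 genes, threshold 0.05), checked on simulated data. A ± after a log2 difference is its standard error. Positions against the db/m range were counted per array without a test. Every member is accounted for. Full values went to members past the threshold with or without db/db 1, at least 2 log2 units above the db/m mean in db/db 1 or 2, or outside the db/m range in db/db 3 to 5. From other lists those past the threshold and defining markers were named. Members and lists were chosen with earlier results of these data known. Symbols came from the probe annotation, gene order and promoters from RefSeq (GRCm38.p6), where all 50 members matched by Entrez ID. Figures used Python 3.11.15, pandas 2.3.3 and matplotlib 3.10.9.

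Alternatives were each array left out, db/db 1 and 2 left out together, array weights, a replicate block, repeated quantile normalisation, median centring, dim genes left out, trend and robust eBayes, control rows kept and an adjusted p of 0.01. Arrays with the same mouse number did not deviate together.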

Additional observations from a re-analysis of the deposited data

Results flagged for a closer look

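In 20 of 124 groups of 5 arrays tested, 1 array lay far from the other 4 by Dixon's test at the 95% level. For a single group chance gives about 1 in 20. The 124 groups are genes and lists read from the same 10 arrays and are not independent, so that rate does not measure the count of 20. In db/db the array of mouse 1 was highest for 11 members. It lay at 10.52 for Ccl20 (next 4.96), 8.88 for Cxcl11 (next 4.88), 8.49 for Ccr1 (next 5.1) and 11.81 for Ccl6 (next 9.48). It lay at 8.0 for Ccr2 (next 5.69), 9.93 for Cxcl14 (next 7.65) and 6.15 for Ccr7 (next 4.52). Smaller gaps were at 6.16 for Ackr1, 5.96 for Ackr2, 5.75 for Ccl24 and 4.68 for Ccr9.

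Mouse 1 was also highest of the db/db arrays for the NK cell marker list at 7.08, and lowest for the podocyte list at 9.11 and the proximal tubule list at 12.79. Array db/db 3 was highest for Ccr4 at 4.46. Among the controls, db/m 1 was lowest for Ackr2 at 5.22, db/m 3 lowest for Ccr2 at 5.56, db/m 4 highest for Ccl2 at 8.53 and lowest for Cxcr6 at 4.83, and db/m 2 lowest for the proximal tubule list at 13.1.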

How the results depend on the processing

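Members called numbered 1 with all 10 arrays, 0 to 5 with 1 array left out, 9 without db/db 1 and 2, 5 with array weights (Ccr7, Ccl17, Ccl25, Ccl6 and Cxcl14) and 0 at an adjusted p of 0.01. All genes called numbered 1072 with all arrays, 490 (without db/m 3) to 2104 (without db/db 1) with 1 left out, 1834 without db/db 1 and 2, 2641 with array weights and 279 at an adjusted p of 0.01. With the replicate block 393 genes and 1 member, Ccl25 (adjusted p = 0.0372), were called by limma. Arrays of the same number correlated at -0.0948 to 0.00599 and 0 of 5 db/m arrays correlated best with its own number. No pairing by number was seen in these deviations from the group means, which cannot exclude a pairing. Centring on array medians called 363 genes higher and 751 lower, against 488 and 584, with a median difference of -0.10 over all genes and 0.10 over the members.

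The 13 members outside the db/m range in db/db 3 to 5 became 8 when a distance of 0.5 was asked, a setting at which all genes were not counted. Directions reversed for Ccl12 without db/db 5 (0.22), for Ccl9 without db/db 1 (-0.17), without db/db 1 and 2 (-0.65) and with array weights (-0.16), and for Cxcl9 under the same settings (-0.68, -1.07 and -0.62). They also reversed for Ccr2 and Cxcr6 without db/db 3 (0.16 and 0.08), 4 (0.08 and 0.12) or 5 (0.20 and 0.23). With 1 array left out the differences ranged up to -1.31 for Ccl12 without db/db 1 and 0.98 for Ccl9 without db/db 4. They reached -0.61 for Ccr2 and -0.57 for Cxcr6 without db/db 1, and 0.73 for Cxcl9 without db/db 3. The cause was not tested. Dim levels limit the fold sizes of 30 members.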
